A study of Mus musculus with 32 samples.

Results

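The caspase inhibitor zVAD was added to lipopolysaccharide (LPS) in macrophages grown from the bone marrow of Ifnar1-/- mice, whose type I interferon receptor is missing its IFNAR1 subunit. Expression was measured on 2 microarrays of Ifnar1-/- macrophages given LPS and zVAD (LPS+zVAD) and on 2 arrays of Ifnar1-/- macrophages given LPS alone. These 4 of the 32 arrays of the series were chosen by the genotype and treatment in their labels. No measured value was used to choose them, though earlier results of these data were known. The series held C57BL/6 wild-type (WT) and Ifnar1-/- macrophages under 8 treatments, with 2 arrays in each of 16 groups, and every array was of cells harvested at 6 h. The labels give LPS at 100 ng/mL, and the sources used here differ on that dose. The same treatments in WT cells (4 arrays), zVAD against no treatment in Ifnar1-/- cells (4 arrays) and LPS+zVAD with necrostatin-1 (Nec-1), an inhibitor of the kinase RIPK1, in Ifnar1-/- cells (2 arrays) served as references.

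The deletion is in every cell of the Ifnar1-/- mice, so all Ifnar1-/- arrays, LPS alone included, share it. The macrophages were grown with M-CSF, and the age of the mice was not given in the sources used here. Nothing states that the 2 arrays of a group came from separate mice or cultures, so the p-values measure the spread between these arrays, which may be technical. Each slide carried the 8 treatments of 1 genotype with 1 replicate number. A change between treatments was therefore measured once within each of 2 slides, whereas WT and Ifnar1-/- arrays always lay on different slides.

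LPS is sensed by Toll-like receptor TLR4, whose adaptors MyD88 and TRIF switch on cytokine genes such as Tnf and, through the transcription factor IRF3, the interferon β gene Ifnb1. Secreted interferon β binds the receptor built from IFNAR1 and IFNAR2 and, through JAK kinases and STAT proteins, switches on the interferon-stimulated genes, many of them antiviral. Some of these genes are also known to be transcribed by IRF3 without the receptor. Caspase-8 restrains the kinases RIPK1 and RIPK3, and in macrophages that sense LPS with caspases blocked these kinases assemble the necrosome, which acts through MLKL to kill the cell by necroptosis.

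All 10 macrophage markers were well above background on the 4 arrays, with a summed log2 intensity of 19.89 to 20.03. Of 8 neutrophil markers 7 were above background on the 4 arrays, at summed log2 intensities of 16.5 to 16.8, and the defining marker Ly6g was not. The Ifnar1 probe (chr16:91510673-91510732 in mm9) read 12.41 and 12.44 on the LPS arrays and 11.60 and 11.72 on the LPS+zVAD arrays, against 14.36 and 14.59 on the WT LPS arrays. That probe was lower in Ifnar1-/- cells but not at background, and the labels do not say which part of the gene is deleted. The replicate arrays correlated at 0.991 for LPS and 0.990 for LPS+zVAD. The pair of Ifnar1-/- arrays with Nec-1 stood apart, with a replicate correlation of 0.947 and 3663 genes more than 2-fold apart. That pair enters the pooled estimate of the spread.

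zVAD added to LPS changed 1326 of 16018 genes in Ifnar1-/- macrophages (8.28% of the genes tested, adjusted p under 0.05 by limma with Benjamini-Hochberg adjustment). Of these 736 were higher (4.59%) and 590 lower (3.68%) with zVAD, and 852 changed by 2-fold or more. All 1326 moved in the same direction on both slides, 756 of them by 2-fold or more on each. The calls were made from these same slides, so that agreement is no replication. With the slide as a block 3122 genes were called (19.5%), 1440 higher (8.99%) and 1682 lower (10.5%), and they included all 1326. Without the Nec-1 pair 1862 genes were called, again with all 1326 among them. The count fell when an array was left out, to 370 without LPS+zVAD replicate 1, 646 without LPS+zVAD replicate 2, 421 without LPS replicate 1 and 557 without LPS replicate 2. The changes below are differences of log2 intensity, LPS+zVAD minus LPS, with the standard error (SE) of the fit, and levels are log2 intensities on the normalised scale, replicate 1 first. The median change of all genes was -0.06.

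The gene with the largest rise was Rsad2, which encodes the antiviral enzyme viperin (chr12:27127859-27127918 in mm9). Its level was 6.93 and 6.73 on the LPS arrays and 15.56 and 15.31 on the LPS+zVAD arrays. Rsad2 thus rose 388-fold, a log2 change of 8.60 ± 0.74 (adjusted p = 9.88e-07), and the groups lay far apart. Ifit2 (chr19:34650244-34650303), whose product blocks translation of viral RNA, read 4.51 and 4.52 on the LPS arrays, not well above background, and 11.47 and 11.32 with zVAD, at least 113-fold higher (adjusted p = 2.27e-08). The log2 change of Ifit2 was 6.88, and 4.86 under another background correction (normexp). Its relative Ifit3 (chr19:34663105-34663164) went from 3.86 and 5.00, above background on 1 of the 2 LPS arrays, to 9.79 and 9.66 (change 5.29 ± 0.44, adjusted p = 7.18e-07). Cmpk2, a mitochondrial nucleotide kinase encoded beside Rsad2 on chromosome 12, went from 6.22 and 6.42 to 10.79 and 10.47 (change 4.31 ± 0.39, adjusted p = 1.38e-06). With LPS alone Rsad2 and Cmpk2 were near the level of untreated Ifnar1-/- cells, and Ifit2 and Ifit3 were below it. With LPS+zVAD all of them were well above it. The untreated arrays read 6.08 and 5.83 for Rsad2, 5.82 and 6.02 for Ifit2, 5.54 and 5.94 for Ifit3 and 6.33 and 6.75 for Cmpk2.

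The gene lists used here were written with an earlier account of these data known, so their counts are a description. Interferon-stimulated genes as a list went both ways. Of 42 such genes, all tested, 5 rose (11.9%, against 4.59% of all genes) and 8 fell (19.05%, against 3.68%), and the median change was -0.13. With the slide as a block 7 rose and 9 fell, and with only the 4 arrays in the fit 10 rose and 9 fell. The fifth to rise was Irgm1, an interferon-inducible GTPase of host defence, from 11.47 and 11.57 to 12.93 and 12.85 (change 1.37 ± 0.23, adjusted p = 9.50e-04). The genes that fell were Mx1, Tap1, Xaf1, Psmb9, Ddx58, Igtp, Trim30a and Psmb8. Mx1, an antiviral GTPase, went from 10.01 and 10.11 to 6.28 and 6.85 (change -3.49 ± 0.92, adjusted p = 0.0234), against 2.78 and 3.56 untreated. Tap1 and Psmb9, which supply peptides to MHC class I, changed by -1.40 ± 0.28 and -1.31 ± 0.30. Ddx58, the viral RNA sensor RIG-I, went from 10.79 and 10.83 to 9.36 and 9.75 (change -1.26 ± 0.21, adjusted p = 0.00100). Igtp, a GTPase of the same family as Irgm1, went the other way from it, from 10.96 and 10.93 to 9.60 and 9.88. The 5 rises passed the test under each of the 15 alternative analyses. Of the 8 falls only that of Ddx58 did, and without LPS+zVAD replicate 1 a single fall was called, 2 without LPS replicate 1 and 3 without LPS replicate 2.

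Another set of interferon-stimulated genes was already raised by LPS alone in Ifnar1-/- cells, and its further rise with zVAD did not pass the test. Isg15, a ubiquitin-like protein, read 10.58 and 10.50 untreated, 17.50 and 17.29 with LPS and 18.47 and 18.51 with LPS+zVAD (change 1.09 ± 0.79, 95% interval -0.56 to 2.75, adjusted p = 0.486). Ifit1 read 2.29 and 2.24 untreated, 11.05 and 11.001 with LPS and 13.91 and 13.44 with LPS+zVAD (change 2.64 ± 1.21, interval 0.10 to 5.19, adjusted p = 0.209). The chemokine gene Cxcl10 read 5.34 and 6.24, 13.10 and 13.54 and 16.14 and 15.85 in the same order (change 2.68 ± 1.03, interval 0.52 to 4.83, adjusted p = 0.122). For each of these the LPS+zVAD arrays lay above the LPS arrays, within a wide pooled error. With 2 arrays in each group that order is no evidence of a change, and the share of all genes with it was not counted. Mx1, given above, was also raised by LPS alone and fell with zVAD. Oasl1 (2.74 ± 1.08) missed the threshold at adjusted p = 0.134 and passed it with the slide as a block, at 0.0471. Ifi44 was not well above background on any of the 4 arrays. Trim21, an antibody receptor and ubiquitin ligase that was not on the list, went from 12.90 and 12.86 to 10.50 and 10.52 (change -2.37 ± 0.29, adjusted p = 6.25e-05), below the 11.01 and 11.21 of the untreated arrays.

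**Figure D1:**
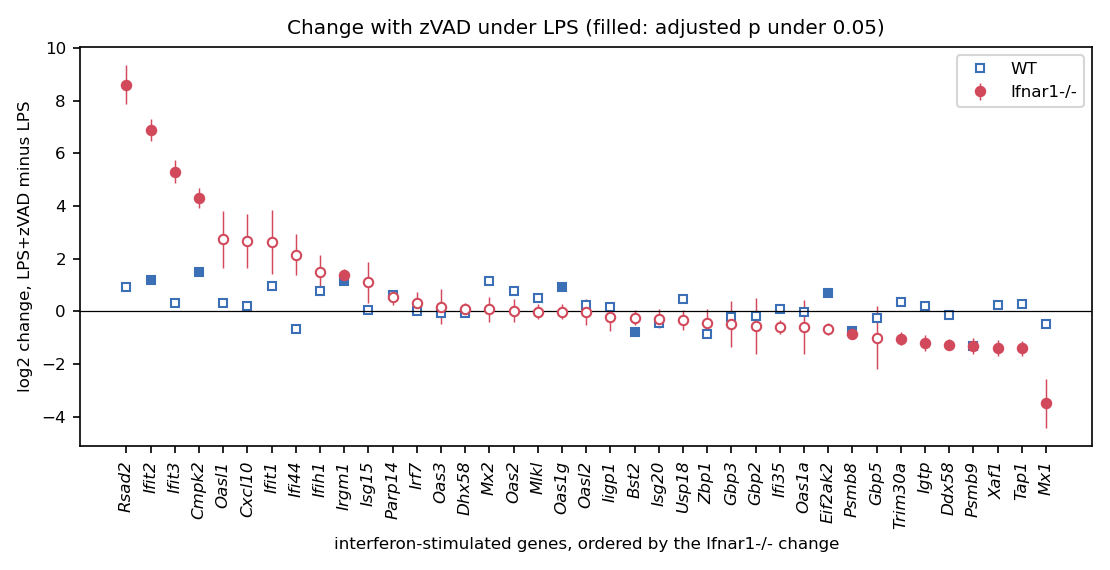
Change in log2 intensity, LPS+zVAD minus LPS, of 39 of the 42 interferon-stimulated genes (x axis, ordered by the change in Ifnar1-/- cells); circles are Ifnar1-/- with bars of 1 SE, squares are WT without bars, and filled symbols passed the test at an adjusted p under 0.05. Rsad2, Ifit2, Ifit3 and Cmpk2 lie between 4.31 and 8.60 in Ifnar1-/- cells and at 1.49 or below in WT cells, while Tap1, Xaf1 and Mx1 lie at -1.40 or below in Ifnar1-/- cells.

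The promoters of these genes were read for the interferon-stimulated response element, the motif that IRF proteins are known to bind. It was searched as GAAANNGAAA on both strands from 250 bases before to 50 bases after each start site (RefSeq, GRCm38.p6). Its matches are in capitals in the sequences of the 200 bases before the start, which are shown because these genes rose, or, for Igtp, because it fell with the same motif close to its start. The windows are Rsad2 at chr12:26456453-26456652 (minus strand), Ifit3 at chr19:34583329-34583528 (plus), Irgm1 at chr11:48871421-48871620 (minus) and Igtp at chr11:58199356-58199555 (plus), each written 5′ to 3′ on the strand of the gene.
Rsad2: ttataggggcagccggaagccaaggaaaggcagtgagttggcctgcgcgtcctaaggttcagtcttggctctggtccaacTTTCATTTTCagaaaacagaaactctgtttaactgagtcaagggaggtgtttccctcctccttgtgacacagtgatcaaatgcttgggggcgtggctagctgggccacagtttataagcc
Ifit3: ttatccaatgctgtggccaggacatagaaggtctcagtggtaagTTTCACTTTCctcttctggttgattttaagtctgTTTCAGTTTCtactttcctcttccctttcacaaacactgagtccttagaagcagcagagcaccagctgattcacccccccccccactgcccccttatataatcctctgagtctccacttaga
Irgm1: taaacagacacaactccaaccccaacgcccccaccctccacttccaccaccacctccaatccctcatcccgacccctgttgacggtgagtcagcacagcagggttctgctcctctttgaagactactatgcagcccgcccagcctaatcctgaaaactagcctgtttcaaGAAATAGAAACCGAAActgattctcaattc
Igtp: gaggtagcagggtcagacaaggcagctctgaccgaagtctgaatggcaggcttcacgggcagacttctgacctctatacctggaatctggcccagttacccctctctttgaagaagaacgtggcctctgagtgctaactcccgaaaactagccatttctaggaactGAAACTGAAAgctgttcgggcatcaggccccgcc
Ifit3 held 2 matches and Irgm1 held 2 that overlap, which read as 1 run of capitals. No match lay in the windows of Ifit2 and Cmpk2, which rose, nor in those of Tap1, Psmb8 and Psmb9, which fell. The element was in 3 of the 5 interferon-stimulated genes that rose, in 3 of the 7 with a promoter in the table that fell, for Ddx58 only after the start, and in 19 of the 33 on the list with one. Among all tested genes with a promoter it was in 482 of 12046 (4.001%), against 18 of 556 that rose (3.24%) and 30 of 465 that fell (6.45%). The motif of AP-1, the family of Fos and Jun, searched as TGANTCA, was in 7.04% of all tested genes with a promoter, in 56 of 556 that rose (10.1%) and in 6.02% of those that fell. The cAMP response element, TGACGTCA, was in 3.22% of all, 2.88% of those that rose and 3.23% of those that fell. A match is a description of the letters, not of binding.

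Beyond the interferon-stimulated genes, the largest rises were of genes for signalling and stress responses. Rgcc, a regulator of the cell cycle, went from 8.33 and 8.57 to 16.39 and 16.13 (change 7.81 ± 0.56, 225-fold, adjusted p = 1.18e-07). Sphk1, the kinase that makes sphingosine-1-phosphate, went from 8.84 and 8.84 to 14.94 and 14.69 (change 5.97 ± 0.39, adjusted p = 3.64e-08). Tnfrsf12a, the receptor of the cytokine TWEAK, went from 9.32 and 9.25 to 15.09 and 14.91 (change 5.72 ± 0.42, adjusted p = 1.44e-07). For each of these the LPS and LPS+zVAD arrays were more than 5 log2 units apart and did not overlap. Gdf15, a cytokine of cell stress, rose by 5.24 ± 0.85, and Gem, a GTPase of the Ras superfamily, by 5.71 ± 0.99. Plagl1, a zinc finger transcription factor, rose by 5.22 ± 0.79, and Tent5c, a poly(A) polymerase, by 5.18 ± 0.44. Depp1 rose by 5.41 ± 0.67.

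Some of the rises ended at the level of untreated cells. Cxcr4, the receptor of the chemokine CXCL12, read 5.99 and 6.82 with LPS, 12.11 and 11.97 with LPS+zVAD and 11.88 and 12.03 on the untreated arrays (change 5.63 ± 1.06, adjusted p = 0.00243). Eps8, which links receptor kinases to actin, read 3.24 and 4.02 with LPS, not well above background, and 8.81 and 9.16 with LPS+zVAD, at least 22.1-fold higher, against 8.55 and 8.97 untreated. Plau, the urokinase plasminogen activator, read 8.11 and 8.60, 13.22 and 13.19 and 12.61 and 12.59 in the same order (change 4.85 ± 0.60, adjusted p = 6.24e-05). Cxcr4, Eps8 and Plau were thus low with LPS alone and close to untreated cells with zVAD present. Rgcc, Sphk1 and Tnfrsf12a were also lower with LPS than untreated, but rose past the untreated level. On the untreated arrays Rgcc read 9.76 and 9.95, Sphk1 10.73 and 10.30 and Tnfrsf12a 11.45 and 11.61. Gem, Gdf15 and Plagl1 were already above the untreated level with LPS alone. The 15 genes with the largest rises passed the test under each alternative that gave them a value, and 13 of them also rose in WT cells.

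The largest falls were smaller than the largest rises. Pdgfrb, a receptor of platelet-derived growth factor, went from 12.24 and 11.93 to 8.04 and 8.25 (change -3.94 ± 0.99, adjusted p = 0.0172). It read 6.65 and 6.00 untreated. Pdgfrb was also 1 of 7 fibroblast or stroma markers, of which 6 were above background on the 4 arrays. Their summed log2 level was 13.1 and 12.7 with LPS and 11.8 and 11.3 with LPS+zVAD, a sum that includes Pdgfrb itself. Of the 6 tested, 5 were lower and 1, Dcn, was higher with zVAD, and only Pdgfrb passed the test. The part of other cells in this change was not tested. Fewer cells of a type and less RNA in each cell cannot be told apart in such bulk samples. Wnt6, a secreted ligand, changed by -3.43 ± 0.75, and Fscn1, the actin-bundling protein fascin, by -3.02 ± 0.60. Pilra, an inhibitory receptor of myeloid cells, went from 15.60 and 15.55 to 12.83 and 13.07 (change -2.62 ± 0.73, adjusted p = 0.0317), and the closely related activating receptors Pilrb1 and Pilrb2, whose probes may share signal, changed by -2.67 ± 0.59 and -2.68 ± 0.65. Ikzf1, the lymphoid and myeloid transcription factor Ikaros, went from 10.27 and 10.84 to 7.49 and 8.34 (change -2.64 ± 0.44, adjusted p = 9.21e-04). Gpr155, an orphan membrane protein, had close replicates, 9.93 and 10.00 with LPS and 7.30 and 7.36 with LPS+zVAD (change -2.64 ± 0.30, adjusted p = 2.29e-05).

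Of the 15 largest falls 4 were of genes not well above background with zVAD, and their falls are bounds. Smim5, a small membrane protein, was at least 6.80-fold lower, Ms4a6b at least 5.55-fold, Fam3b at least 4.66-fold and Arhgap32, an activator of GTP hydrolysis by small GTPases, at least 4.503-fold. Cdc42ep1, an effector of the GTPase Cdc42, changed by -2.73 ± 0.48. More falls than rises depended on a given array: 10 of the 15 lost their call without LPS+zVAD replicate 1, 6 without LPS+zVAD replicate 2, 7 without LPS replicate 1 and 6 without LPS replicate 2. Arhgap32, Cdc42ep1, Ikzf1 and Gpr155 passed under each alternative. The change of Pdgfrb stayed between -3.79 and -4.10 when an array was left out, and that of Mx1 between -3.21 and -3.78, without passing the test.

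**Figure D2:**
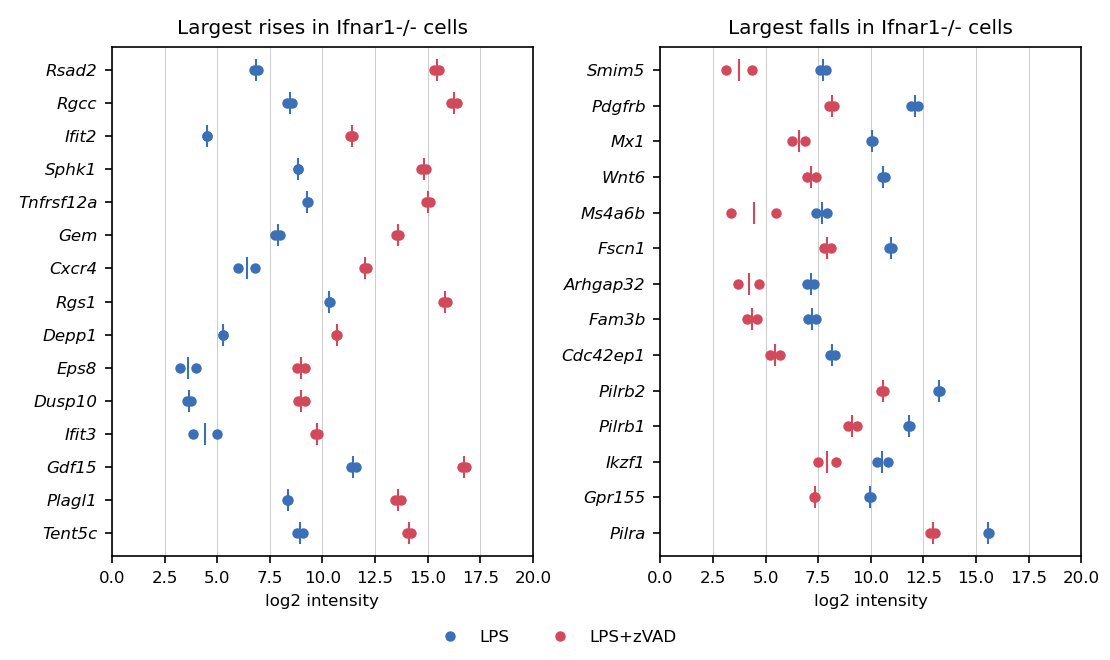
Log2 intensity (x axis) on each of the 4 Ifnar1-/- arrays for the 15 genes with the largest called rises and 14 of the 15 with the largest called falls; blue points are LPS, red points LPS+zVAD and short vertical lines the mean of the 2 arrays. In every row the blue and red points are apart, by 5.18 to 8.60 on average for the rises and by 2.62 to 4.01 for the falls.

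The lists that follow were written with an earlier account of these data known, so their ranking is a description and no independent test. Their counts stand against 4.59% of all genes that rose and 3.68% that fell, or 8.99% and 10.5% with the slide as a block. A count near those shares is no finding about its list. The list with the highest share of rises was that of immediate early transcription factors, which cells induce quickly after a signal. Of 27 tested, 10 rose (37.0%) and 1 fell, with a median change of 1.05. Klf2, a Krüppel-like factor that restrains inflammatory genes, went from 8.53 and 8.85 to 13.27 and 13.21 (change 4.55 ± 0.27, adjusted p = 1.56e-08), and its relative Klf4 from 8.46 and 8.32 to 12.31 and 11.99 (change 3.76 ± 0.42). Egr1 rose by 3.83 ± 0.60, Csrnp1 by 3.58 ± 0.43, Bhlhe40 by 3.10 ± 0.69, Mafk by 2.96 ± 0.24 and the nuclear receptor Nr4a1 by 2.43 ± 0.47. Smaller rises were those of the AP-1 subunit Jun (1.75 ± 0.46), Atf3 (1.41 ± 0.38) and Nfil3 (1.11 ± 0.32), and Srf, the serum response factor, fell by 0.70 ± 0.20. With the slide as a block 17 rose and 2 fell, and dropping any 1 of the 4 arrays left 6 rises and 0 falls by limma.

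Inhibitors of MAP kinase and G protein signalling, genes that are themselves induced by these pathways, showed a like share. Of 18 tested, 6 rose (33.3%) and 0 fell, with a median change of 1.36, and 9 rose and 1 fell with the slide as a block. Rgs1, which quenches G protein signals, went from 10.36 and 10.30 to 15.93 and 15.71 (change 5.48 ± 0.61, adjusted p = 2.10e-05) and Rgs2 rose by 3.28 ± 0.54. Untreated, Rgs1 read 14.28 and 13.79, so LPS alone was well below that level. Dusp10, a phosphatase of p38 and JNK, read 3.78 and 3.59 with LPS, not well above background, and 9.17 and 8.84 with zVAD, at least 22.4-fold higher. It read 6.20 and 6.14 untreated. Dusp14 rose by 3.87 ± 0.73, Dusp1 by 1.94 ± 0.53 and Dusp3 by 1.42 ± 0.33. Between 4 and 5 of the 6 rises were called with an array left out.

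Ligands of growth factor receptors and genes of plasminogen activation gave 3 rises and 0 falls among 13 tested. Hbegf, a ligand of the EGF receptor, went from 9.08 and 9.20 to 13.34 and 13.13 (change 4.09 ± 0.54, adjusted p = 1.14e-04), and Vegfa, the angiogenic growth factor, from 8.23 and 8.76 to 11.56 and 11.77 (change 3.17 ± 0.74, adjusted p = 0.0106). The third was Plau. Of the chemokine and chemoattractant receptors, 2 of 17 rose, Cxcr4 and the chemerin receptor Ccrl2 (3.61 ± 1.06), and 0 fell. Of the MHC class II and costimulation genes 2 of 16 rose, Cd86 (4.10 ± 0.36), a costimulatory ligand of T cells, and Cd83 (3.31 ± 0.74), and 0 fell. With the slide as a block the ligand list gave 4 rises and 1 fall, the receptors 4 and 1, and the MHC class II and costimulation genes 2 rises and 3 falls. Over all genes 8.99% rose and 10.5% fell with the block, so a count such as 2 rises of 16 lies near the share of all genes. When an array was dropped, 2 or 3 rises were called among the ligands, 1 among the receptors and 1 or 2 among the costimulation genes.

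The cytokines that LPS is known to induce most did not pass the test. Tnf read 17.51 and 17.66 with LPS and 18.06 and 18.11 with LPS+zVAD, a change of 0.50 ± 1.11 with a 95% interval of -1.82 to 2.83 (adjusted p = 0.892). Il6 read 17.28 and 17.46 and 15.34 and 15.64 (change -1.88 ± 1.60, interval -5.23 to 1.48, adjusted p = 0.587), with a wide pooled error. That fall passed the test without the Nec-1 pair and with only the 4 arrays in the fit. Ifnb1 read 11.499 and 11.65 and 12.43 and 12.38 (change 0.83 ± 1.02, interval -1.31 to 2.97, adjusted p = 0.749). The Nec-1 pair, which enters the pooled spread, read 15.92 and 9.99 for Tnf and 14.26 and 4.94 for Il6. Il1a changed by -1.69 ± 1.54 (adjusted p = 0.624), Il1b by -0.58 ± 1.80 (0.926), Cxcl1 by 0.65 ± 1.46 (0.893) and Cxcl2 by 1.02 ± 1.44 (0.796). With only the 4 arrays in the fit, Ifnb1, Il1a and Cxcl2 passed, with the same changes.

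Of 28 cytokines tested 3 rose and 3 fell (10.7% each, against 4.59% and 3.68% of all genes). Tnfsf14, the TNF family ligand LIGHT, went from 6.03 and 5.71 to 10.63 and 10.92 (change 4.90 ± 0.52, adjusted p = 1.28e-05). Il10, the anti-inflammatory cytokine, went from 7.86 and 8.24 to 10.44 and 10.55 (change 2.45 ± 0.75, adjusted p = 0.04998), a call at the threshold that was lost in 6 alternatives, among them each that dropped 1 of the 4 arrays, where the change was 2.26 to 2.64. Osm, the cytokine oncostatin M, rose by 2.01 ± 0.47. Dropping any 1 of the 4 arrays left the rise of Tnfsf14 as the only call among the cytokines. The falls were of Il18 (-2.09 ± 0.63), whose product is matured by caspase-1, of Ebi3 (-1.50 ± 0.44), a subunit of interleukins 27 and 35, and of Ltb (-1.16 ± 0.33), lymphotoxin β. Of 23 chemokines tested Ccl7, a monocyte attractant, rose from 9.93 and 10.67 to 14.05 and 14.50 (change 3.98 ± 0.81, adjusted p = 0.00441), and Ccl17 (-2.46 ± 0.65) and Ccl24 (-1.61 ± 0.43), which attract cells of type 2 responses, fell. Ccl7 was called in 3 of the 4 fits without an array, Ccl24 in 2 and Ccl17 in 0. Zfp36, the protein TTP that marks cytokine mRNAs for decay, went from 10.88 and 10.62 to 13.06 and 12.47 (change 2.01 ± 0.55, adjusted p = 0.0295). That call was lost after dropping any 1 of the 4 arrays, where the change was 1.72 to 2.30. Of 22 genes for such RNA-binding and decay factors it was 1 of 3 to rise, with Arid5a (2.02 ± 0.30), which stabilises mRNAs, and Cnot1 (0.92 ± 0.20), a deadenylase scaffold, and 0 fell. With the slide as a block 5 of them rose and 1 fell, and 1 or 2 rose when an array was dropped.

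Genes of the necrosome and of the TNF receptor complex changed by 0.56 to 1.16 log2 units in either direction where called. Of 32 tested 3 rose (9.38%, against 4.59% of all genes) and 2 fell (6.25%, against 3.68%), with a median change of -0.19. With the slide as a block 3 rose and 5 fell, against 8.99% and 10.5% of all genes, so the rises were near that share. Ripk3 read 11.65 and 11.81 with LPS and 12.73 and 12.81 with LPS+zVAD (change 1.04 ± 0.28, adjusted p = 0.0282), and Ripk1 read 11.81 and 11.90 and 12.39 and 12.43 (change 0.56 ± 0.16, adjusted p = 0.0346). Both calls were lost after dropping any 1 of the 4 arrays, where the change was 0.96 to 1.12 for Ripk3 and 0.51 to 0.60 for Ripk1. Ticam1, which encodes TRIF, rose by 1.16 ± 0.26. Casp8, the caspase that holds RIPK1 and RIPK3 in check, changed by -0.76 ± 0.23 (adjusted p = 0.0485), and Tnfrsf1a, the TNF receptor, by -0.62 ± 0.19 (adjusted p = 0.0495). Ticam1 and Casp8 were called in 0 and Tnfrsf1a in 1 of the 4 fits without an array. Mlkl, the executioner of necroptosis, changed by -0.01 ± 0.27 (interval -0.57 to 0.56), and Mapkapk2, which encodes the kinase MK2, by -0.18 ± 0.48 (interval -1.19 to 0.83). Of 22 Toll-like receptor genes and adaptors 1 rose, the inhibitor Tollip (1.501 ± 0.23), and 3 fell, the adaptors Myd88 (-1.06 ± 0.23) and Tirap (-0.97 ± 0.22) and the RNA receptor Tlr8 (-1.87 ± 0.56). The share that rose (4.5%) was near that of all genes (4.59%), and 13.6% fell, against 3.68%. Of 23 interferon regulatory factors, STAT and SOCS genes and their kinases 0 rose by limma and 3 fell, Irf3 (-0.71 ± 0.21), Irf5 (-0.70 ± 0.18) and Jak2 (-1.22 ± 0.36), and with the slide as a block 3 rose and 3 fell. The Toll-like receptor list gave 2 rises and 6 falls with the block, and 1 rise and 0 to 2 falls when an array was dropped, where the other list gave 0 rises and at most 1 fall.

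**Figure D3:**
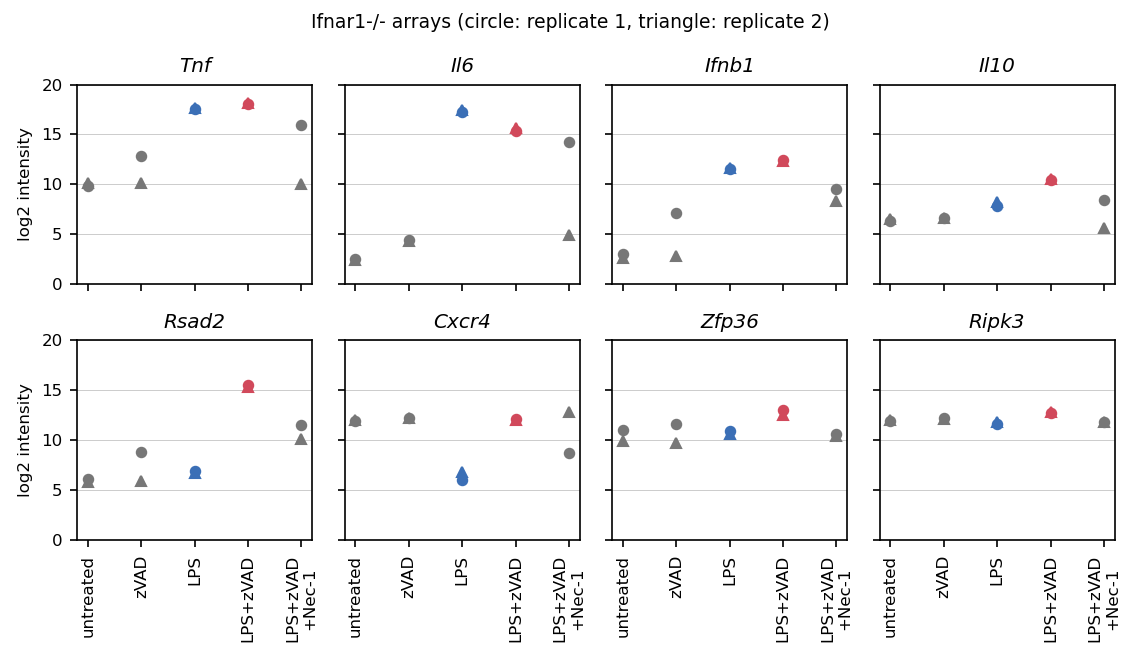
Log2 intensity (y axis) of 8 genes on the Ifnar1-/- arrays of 5 treatments (x axis); circles are replicate 1 and triangles replicate 2, blue LPS, red LPS+zVAD and grey the other treatments. Rsad2 is highest with LPS+zVAD (15.56 and 15.31), Cxcr4 is low only with LPS apart from Nec-1 replicate 1, and the 2 arrays with Nec-1 lie far apart for Tnf (15.92 and 9.99) and Il6 (14.26 and 4.94).

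Genes of the lysosome and autophagy gave 7 rises and 0 falls among 26 tested (26.9% higher, against 4.59% of all genes). Atp6v0d2, a subunit of the lysosomal proton pump, rose by 3.01 ± 0.50, Optn, an autophagy receptor, by 2.36 ± 0.31, and Gabarapl1, of the ATG8 family, by 1.61 ± 0.19. The kinase Ulk1 (1.503 ± 0.35) and Atg12 (1.49 ± 0.28), which start and extend the autophagosome, and Neu1 (0.90 ± 0.20) and Atp6v1h (0.72 ± 0.20) were the others. The slide block raised this to 11, and after dropping any 1 of the 4 arrays 4 rose. Of 21 genes of endoplasmic reticulum stress and ATF4, 3 rose and 0 fell, and 11 rose and 1 fell with the slide as a block. Those 3 were Asns (2.96 ± 0.85), asparagine synthetase, the stress sensor Ern1 (2.06 ± 0.26) and the chaperone Dnajb9 (0.81 ± 0.16), of which 1 or 2 were called when an array was dropped.

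Transcription factors of the macrophage lineage went both ways, with 5 rises and 3 falls among 21. Pparg, the lipid-sensing nuclear receptor, rose by 2.34 ± 0.47, Id2 by 1.51 ± 0.42, and Bach1, Zeb2 and Runx1 by 0.97, 0.80 and 0.70. Id1 changed by -1.98 ± 0.39, Maf by -1.70 ± 0.37 and Cebpd by -1.65 ± 0.38. With an array left out 1 rise and 0 to 2 falls were called. Of 34 surface receptors 1 rose, Cd68 (0.62 ± 0.16), and the purine receptors P2ry13 (-2.13 ± 0.55) and P2ry6 (-0.95 ± 0.21) fell. Of 21 glycolysis and hypoxia genes 3 rose, Ndrg1 (3.57 ± 0.42) and the hexokinases Hk2 (1.62 ± 0.30) and Hk3 (1.35 ± 0.26), and 0 fell. Of 10 genes of nitric oxide, arginine and itaconate metabolism 2 rose, Arg2 (2.98 ± 0.77), the mitochondrial arginase, and Odc1 (1.92 ± 0.32), which makes the polyamine putrescine. When an array was dropped, the 3 rises of glycolysis and hypoxia were still 3 in number, 1 rise was called among the metabolism genes, and 0 rises and 0 to 2 falls among the surface receptors.

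In lipid mediators, Hpgds (2.70 ± 0.36), a prostaglandin D synthase, and Lta4h (0.93 ± 0.20), which makes leukotriene B4, rose and the prostaglandin receptor Ptger4 (-1.07 ± 0.25) fell among 18 tested. Of 27 genes of sterol synthesis and efflux 2 rose, both regulators, Insig1 (2.61 ± 0.37) and Srebf2 (0.87 ± 0.26), and 1 fell, the enzyme Mvk (-1.66 ± 0.35). These shares, 7.41% and 3.70%, stand against 4.59% and 3.68% of all genes. Among 15 genes listed as DNA damage genes and p53 targets, Gadd45g (2.70 ± 0.28), Mdm2 (2.11 ± 0.37) and Bbc3 (1.60 ± 0.45) rose and Ccng1 (-0.76 ± 0.20) fell. Of 14 BCL2 family genes Bbc3 and Bid (1.61 ± 0.24), both promoters of cell death, rose, and Bad (-0.73 ± 0.19) fell. Of 30 cell cycle genes the replication factors Mcm4 (1.45 ± 0.27) and Pcna (0.70 ± 0.19) rose and the cyclin Ccnd2 (-1.70 ± 0.44) fell. The slide block raised the falls to 5 for the sterol genes and to 4 for the DNA damage and p53 list. It raised the rises to 4 for the BCL2 family and to 5 for the cell cycle genes. Without an array the DNA damage and p53 list gave 2 rises and 0 falls and the BCL2 family 1 rise and 0 falls. The lipid mediator, sterol and cell cycle lists gave 1 or 2 rises and at most 1 fall each.

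Other lists held few or no calls, at shares that mostly lay near the 4.59% higher and 3.68% lower of all genes. Of 21 inflammasome genes 1 rose, the kinase Nek7 (0.66 ± 0.19), and 2 fell, Il18 and the adaptor Pycard (-1.08 ± 0.28). Of 21 NF-κB genes 1 rose, Nfkbid (1.26 ± 0.30), and 1 fell, the kinase Ikbkb (-1.001 ± 0.17). Of 15 targets and regulators of NRF2 1 fell, its inhibitor Keap1 (-0.64 ± 0.19). The calls of Nek7, Il18, Pycard, Nfkbid and Keap1 were lost after dropping any 1 of the 4 arrays, and that of Ikbkb was not. Among 77 mitochondrial ribosomal proteins 1 rose, Mrps6 (0.99 ± 0.20), and 4 fell, and 2 rose and 13 fell with the slide as a block, with a median change of -0.28. Without an array at most 1 rose and at most 1 fell. No call was made by limma among 13 complement genes, 13 heat shock chaperones and 82 cytosolic ribosomal proteins, and with the slide as a block 1 complement gene fell, 2 chaperones rose and 1 ribosomal protein gene fell. At an unadjusted p under 0.05, 2 complement genes were lower, 1 chaperone higher, and 1 ribosomal protein gene higher and 1 lower. With only the 4 arrays in the fit 2 complement genes fell and 4 chaperones rose.

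Without the Nec-1 pair in the fit, the calls of each list stayed within 1 of those given in each direction, except for 8 lists. The mRNA decay factors then gave 5 rises and 0 falls, the DNA damage and p53 list 3 and 3, and the NF-κB genes 1 and 3. The chemokine and chemoattractant receptors gave 2 and 2, the complement genes 0 and 2 and the inflammasome genes 3 and 3. The mitochondrial ribosomal proteins gave 1 and 9, and the necrosome and TNF receptor genes 3 and 4.

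**Figure D4:**
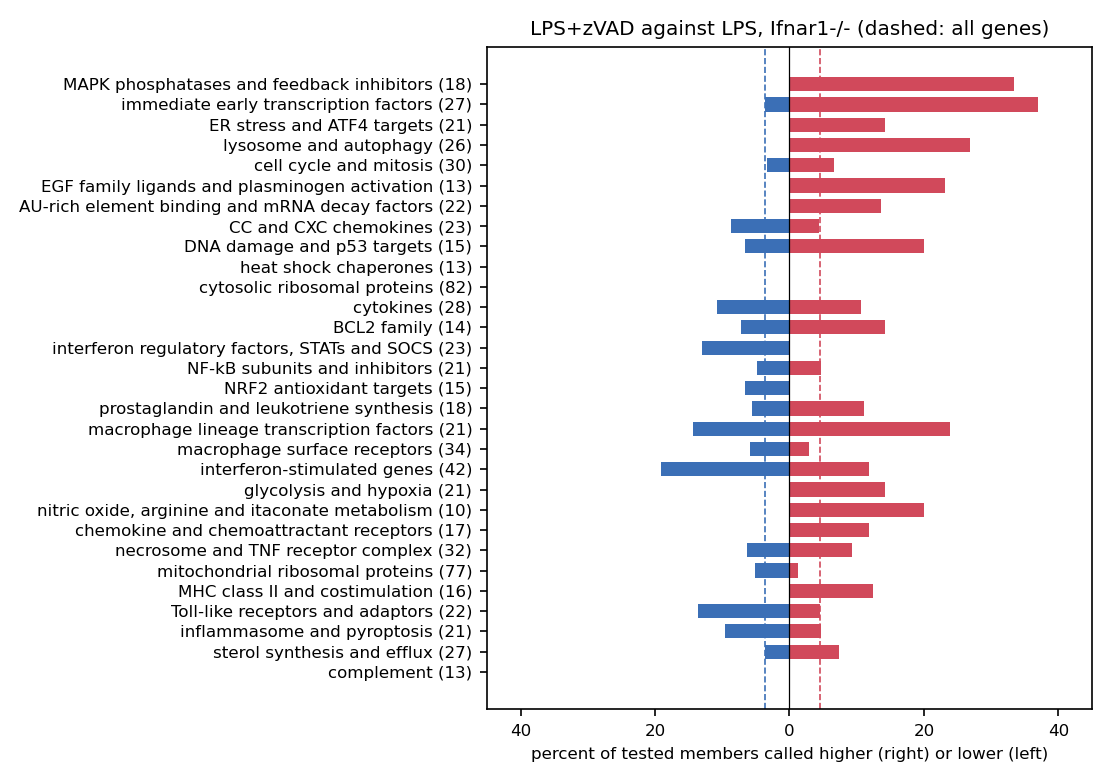
Share of the tested genes of each list, in percent (x axis), that were higher (red, to the right) or lower (blue, to the left) with LPS+zVAD than with LPS in Ifnar1-/- cells; the number tested is in brackets, dashed lines mark the shares over all genes (4.59% and 3.68%) and lists are ordered by their median change. Immediate early transcription factors (37.0% higher) and MAPK phosphatases and feedback inhibitors (33.3% higher) reach farthest to the right, and interferon-stimulated genes (19.05% lower) farthest to the left. The lists were written with an earlier account of these data known.

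Set beside WT macrophages under the same treatments, most of the change was shared. In WT cells 5552 genes were called (34.7%), 2060 higher (12.9%) and 3492 lower (21.8%). The standard error of a gene is pooled over all groups and was the same for both genotypes, apart from genes with a left-out spot. WT replicates lay farther apart, with 1969 (LPS) and 1866 (LPS+zVAD) genes more than 2-fold apart, against 556 and 633 in Ifnar1-/- cells. With only the arrays compared in the fit, 1719 genes were called in WT and 2061 in Ifnar1-/- cells. With all arrays of a genotype the counts were 4848 and 2054. Which genotype had more calls thus depended on the arrays fitted, and the shares of WT calls below are those of the pooled fit. Of the 736 genes that rose in Ifnar1-/- cells 629 (85.5%) also rose in WT cells, where they were 30.5% of the rises. Of the 590 that fell 476 (80.7%) also fell in WT cells, 13.6% of the falls there. Over all genes the changes in the 2 genotypes, which share no array, correlated at r = 0.724 (Spearman correlation 0.679). These are correlations across 16018 genes on arrays of the same design and normalisation, and genes are not independent replicates. Of the genes called in the same direction in both, 833 (75.4%) had the larger change in WT cells.

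The difference itself, the zVAD change in Ifnar1-/- cells minus that in WT cells, passed the test for 578 genes (3.61%), 434 with a positive (2.71%) and 144 with a negative difference (0.899%). With the slide as a block it passed for 2147 (13.4%). Of the 434, 414 were genes that fell in WT cells and 346 had no call in Ifnar1-/- cells. Of the 144, 124 were genes that rose in WT cells and 97 had no call in Ifnar1-/- cells. The count depended on the arrays in the fit: 127 without Ifnar1-/- LPS+zVAD replicate 2, 1102 without WT LPS+zVAD replicate 1, and 3 when only the 8 arrays compared were fitted, with 2337 genes then at an unadjusted p under 0.05. Genes that were called both in Ifnar1-/- cells and in the difference numbered 135.

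The largest positive differences were those of Rsad2, Ifit2 and Ifit3. Rsad2 read 17.64 and 16.87 on the WT LPS arrays and 18.26 and 18.09 with LPS+zVAD, so it was already high with LPS and changed by 0.92 (adjusted p = 0.393). The difference was 7.68 ± 1.05 (adjusted p = 7.21e-04), and the Ifnar1-/- arrays with LPS+zVAD read below the WT arrays, which were on other slides. Ifit2 differed by 5.67 ± 0.61 (adjusted p = 1.68e-04), Ifit3 by 4.97 ± 0.62 (3.23e-04) and Cmpk2 by 2.82 ± 0.54 (0.00794). Ifit3b, a near copy of Ifit3 whose probe may take its signal, differed by 3.41 ± 0.88 (adjusted p = 0.0384). Klf2 rose in both genotypes, by 4.55 in Ifnar1-/- and 1.96 in WT cells, a difference of 2.59 ± 0.38 (adjusted p = 0.00120). The other positive differences among the 10 largest were of Tor4a, Gpr85, Tha1, Fam78a and Asb7, which fell less in Ifnar1-/- than in WT cells. The differences of Rsad2 and Ifit2 passed in all alternatives, and that of Ifit3b was lost in 14 (highest adjusted p = 0.726).

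The largest negative difference was that of Ccl17, which attracts T cells through CCR4. It went from 11.60 and 11.86 to 9.13 and 9.40 in Ifnar1-/- cells and from 7.56 and 8.58 to 10.01 and 9.12 in WT cells, a difference of -3.96 ± 0.92 (adjusted p = 0.0227). Hey1, a repressor downstream of Notch, fell in Ifnar1-/- cells (-2.18 ± 0.35) and rose in WT cells (1.65), a difference of -3.83 ± 0.49 (adjusted p = 4.89e-04). Hbegf rose in both and by 7.21 in WT cells, a difference of -3.12 ± 0.76 (adjusted p = 0.0280), and so did Tmem144, by 3.20 in Ifnar1-/- and 7.00 in WT cells. In Ifnar1-/- cells Tmem144 read 6.12 and 6.63 with LPS, 9.57 and 9.58 with LPS+zVAD and 9.94 and 9.98 untreated. The difference of Ccl17 was lost in 6 alternatives, the 4 that drop an Ifnar1-/- array among them (highest adjusted p = 0.103), that of Hbegf in 7 (0.169) and that of Tmem144 in 9 (0.430). Calls in opposite directions were made for 9 genes, all of them lower in Ifnar1-/- and higher in WT cells with zVAD. They were Hey1, Spin4, Gm13710, Arap3, Cyb5rl, Dtx3l, Cib2, Blnk and Galnt10, named after their values were seen. Of the interferon-stimulated genes, Tap1 differed by -1.69 ± 0.39, Xaf1 by -1.63 ± 0.43, Trim30a by -1.39 ± 0.34 and Ddx58 by -1.13 ± 0.30, each lower in Ifnar1-/- and not called in WT cells.

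Ifnb1 was the cytokine gene with the widest gap between the genotypes among those named. It read 10.38 and 9.004 with LPS and 14.02 and 15.51 with LPS+zVAD in WT cells, a rise of 5.07 (adjusted p = 7.05e-04). The difference of -4.24 ± 1.44 missed the threshold (adjusted p = 0.111) and passed it with the slide as a block (0.0295). For Tnf the difference was -1.28 ± 1.57 (adjusted p = 0.811) and for Il6 -1.06 ± 2.26 (adjusted p = 0.914).

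**Figure D5:**
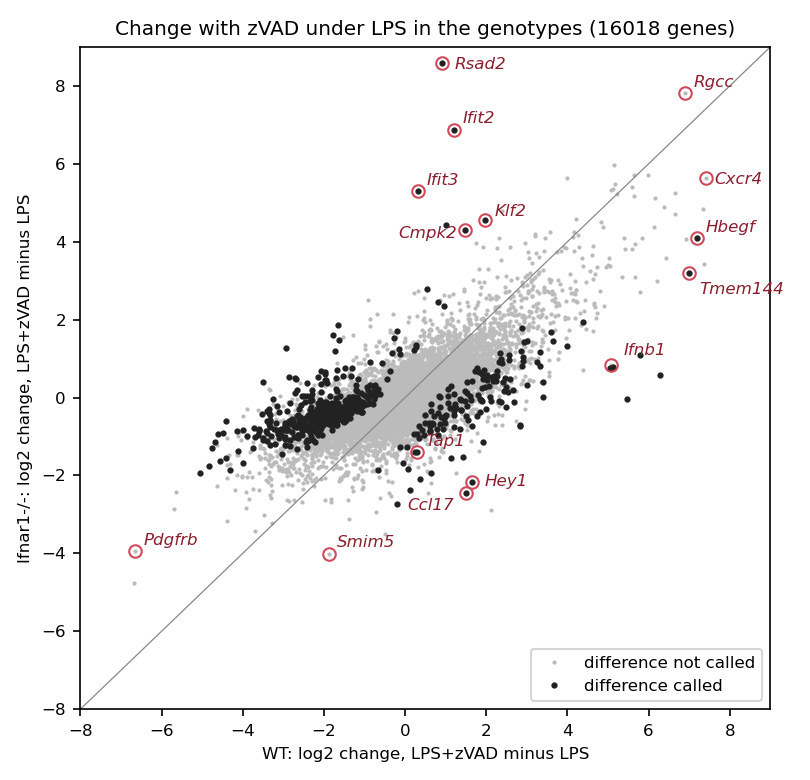
Change in log2 intensity, LPS+zVAD minus LPS, in WT cells (x axis) and in Ifnar1-/- cells (y axis) for 16018 genes; black points are the 578 genes whose difference passed the test, the grey diagonal marks equal change and circled genes are named. Rsad2, Ifit2, Ifit3 and Cmpk2 lie far above the diagonal at small WT changes, and Ccl17 and Hey1 lie below 0 in Ifnar1-/- and above 0 in WT cells.

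Without LPS, the genes with the largest rises moved less with zVAD. The zVAD change with LPS differed from that without LPS for 215 genes (1.34%), and for 878 with the slide as a block (5.48%). The difference, with LPS minus without, was positive for 173 of the 215 (1.08%) and negative for 42 (0.262%). Of the 15 largest rises 11 differed, and 15 with the slide as a block, and their changes with zVAD alone lay between -0.23 and 1.42 with a median of 0.39. Rsad2 read 8.86 and 5.89 with zVAD alone and 6.08 and 5.83 untreated, so that 1 of its 2 zVAD arrays was raised, and its change differed by 7.18 ± 1.05 (adjusted p = 0.00154). The same zVAD replicate 1 read higher than replicate 2 for Tnf (12.84 and 10.13) and Ifnb1 (7.11 and 2.81). Of the 15 largest falls 1 differed, and 7 with the slide as a block, and their changes with zVAD alone lay between -0.41 and 0.65. These rises and falls were picked by their change under LPS, which enters the difference on the same arrays. The counts for the 15 are therefore a description and no independent test of a dependence on LPS.

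With Nec-1 added to LPS+zVAD, the levels of some genes with large rises lay between those of LPS and of LPS+zVAD. No test was made on that pair because its arrays differ so much. Rsad2 read 11.504 and 10.10, against 6.93 and 6.73 with LPS and 15.56 and 15.31 with LPS+zVAD. Sphk1 read 11.63 and 11.54 and Rgcc 12.55 and 10.91, above LPS and below LPS+zVAD on both arrays. Hbegf read 7.74 and 8.07, below the LPS arrays. The largest falls showed no common pattern. Gpr155 (8.37 and 8.13) and Ikzf1 (9.51 and 8.74) lay between LPS and LPS+zVAD. Ms4a6b (8.53 and 9.53) lay above the LPS arrays, and Pdgfrb (9.77 and 5.68) fell below LPS+zVAD on replicate 2. For Cxcr4 the pair read 8.75 and 12.86. Replicate 2 was thus near both LPS+zVAD and the untreated arrays (11.88 and 12.03), and replicate 1 was near neither. Replicate 2 also read near the untreated arrays for Tnf (9.99, against 9.88 and 10.13) and Il1a (2.38, against 2.24 and 2.50). For Rsad2 it did not (10.10, against 6.08 and 5.83). What sets that array apart was not tested.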

How the data were processed

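RNA of 32 macrophage samples was hybridised by the authors to 1-colour Agilent mouse arrays of 60-base probes. Values were read from the deposited scanner files as intensity (background-subtracted processed signals, per the file headers). The authors' normalized table, on a log2 scale per the values deposited, served only as an alternative; its probe positions and the scanner files name mm9. The tool limma is among the submitters' processing notes, with no version given in the sources used here.

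Log2 intensities were taken, spots marked as outliers left out (130 to 499 per array) and spots averaged per probe. Arrays were quantile-normalised over 55681 probes, and probes well above background on at least 16 of 32 arrays kept. No probe was saturated. Names came from the accession for 27656 of 33140 named probes, from a symbol or synonym for 3709 and from the array file for 1775. The brightest probe stood for each of 16018 genes. A model of 16 group means (16 residual degrees of freedom) was fitted with limma 3.58.1 in R 4.3.3, with Benjamini-Hochberg adjustment over all genes and a threshold of 0.05. The scripts were tested on simulated data. The number of arrays, 2 per group, limits the precision. A lower bound ("at least") sets the bright group's mean against the lowest signal well above background on each dim array, or the probe's own value if higher.

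Replicate numbers marked slides. Deviations of same-numbered Ifnar1-/- arrays correlated at 0.583 for LPS and LPS+zVAD and at 0.167 to 0.583 over all 28 pairs of Ifnar1-/- groups, so the numbers pair the arrays, and the slide was fitted as a block as an alternative (14 residual degrees of freedom). Named genes were the 15 largest called rises and falls, the 10 largest called differences from WT in each direction, genes the study discusses and members of the gene lists, of which a few are not reported here. The comparison, genes and lists were chosen with earlier results of these data known. Alternatives were the 75th percentile shift, normexp (offset 50), the authors' values, filters on dim probes, the median of a gene's probes, other sets of arrays, a trended robust fit and leaving out arrays. Promoters were those of RefSeq on GRCm38.p6, matched by symbol for 12046 of the 16018 genes.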

Additional observations from a re-analysis of the deposited data

Results flagged for a closer look

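For 31 genes the zVAD change under LPS differed between Ifnar1-/- and WT cells by the interaction test of limma, among the named genes and the list members called in Ifnar1-/- cells. The values are Ifnar1-/- minus WT, in log2 units, and the genotypes lay on different slides, while each change was taken within slides. The interferon-stimulated genes Rsad2 (7.68), Ifit2 (5.67), Ifit3 (4.97), Ifit3b (3.41) and Cmpk2 (2.82) rose more in Ifnar1-/- cells, as did the transcription factor Klf2 (2.59). The positive differences of Tor4a (3.11), Gpr85 (3.09), Tha1 (2.84), Fam78a (2.73), Asb7 (2.68), Irf3 (1.13), P2ry6 (1.102) and Mrpl44 (1.09) were of genes that fell in both genotypes and less in Ifnar1-/- cells. For Asb7 the spot on 1 WT LPS+zVAD array was left out, so that value rests on the other array. The interferon-stimulated genes Tap1 (-1.69), Xaf1 (-1.63), Trim30a (-1.39) and Ddx58 (-1.13) and the antibody receptor Trim21 (-2.49) fell in Ifnar1-/- cells with no call in WT cells. Ccl17 (-3.96), Hey1 (-3.83), Spin4 (-2.94), Cdc42ep1 (-2.54), Hhex (-2.57), and Adgre4 (-2.48) also had negative differences. Tmem144 (-3.80), Hbegf (-3.12), Pou3f1 (-2.46), Mcm4 (-1.56), Mrps6 (-1.38) and Atp6v1h (-1.05) rose in both genotypes and more in WT cells. Among the 20 genes with the largest differences, those of Rsad2 and Ifit2 passed under each alternative, and those of Ifit3, Cmpk2, Hey1, Hhex, Adgre4, Trim21 and Asb7 were lost only when the 8 arrays compared were fitted alone.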

How the results depend on the processing

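The count of 1326 genes changed by zVAD under LPS in Ifnar1-/- cells became 2061 with only the 4 arrays compared, 2054 with only the arrays of the genotype and 3122 with the slide as a replicate block, and was 370 to 646 when an array was left out. In the other alternatives it lay within 1.5 times of 1326, from 961 to 1862. Of the 1326, 1044 were also called with only the 4 arrays compared, 367 without LPS+zVAD replicate 1 and 1326 with the block. The 578 genes whose change differed between the genotypes became 354 with the 75th percentile shift, 320 with the authors' values, 377 with no filter on dim probes, 3 with only the arrays compared, 963 without the Nec-1 pair, 2147 with the replicate block and 127 to 1102 with an array left out. The 215 genes whose change differed with and without LPS became 115 with the 75th percentile shift, 1241 with only the arrays compared, 568 with only the arrays of the genotype, 483 without the Nec-1 pair, 878 with the block and 54 to 101 with an array left out. The 5552 genes in WT cells became 1719 with only the arrays compared and 3584 to 5267 with an array left out. The cause of these shifts was not tested. Among the largest rises, falls and differences and the genes the study discusses, the direction turned only for Mlkl, from -0.01 to 0.11 with normexp and 0.13 with the authors' values, and when an array was left out its change was -0.058 to 0.042. Among the 783 listed genes it turned for 162 when an array was left out, of which 0 were called by limma. Dim probes changed less with normexp: Ifit2 by 4.86, Eps8 by 2.62, Dusp10 by 2.77, Ifit3 by 3.34, Ifit3b by 1.68, Smim5 by -1.86, Ms4a6b by -1.61, Arhgap32 by -1.25, Fam3b by -1.36, Cdc42ep1 by -1.67 and Spin4 by -0.18. With the median of a gene's probes Plagl1 changed by 3.12, Ifit3b by 2.65, Fam78a by -0.55 and Asb7 by -0.32. The block changed no call of the change in Ifnar1-/- cells among the named genes outside the lists, and raised the calls among the listed genes from 113 to 204, with 0 lost. For genes near background, the array background limits what can be read of the size of a change.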

Other observations

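Some genes of interest were too dim on most of the 32 arrays to be tested, and passed a filter that asked only for signal well above background on both arrays of LPS or of LPS+zVAD in Ifnar1-/- cells. A gene that passes such a filter only through its brighter group is bound to differ, whereas a gene bright in both groups can pass without differing. The cytokine gene Il1f9, for one, passed at 8.72 and 9.48 with LPS and 8.59 and 9.08 with LPS+zVAD. The genes below are given as values with no test. Il12a, a subunit of interleukin 12, read 11.17 and 10.46 with LPS and 8.32 and 7.66 with LPS+zVAD. Il12b, the other subunit, read 14.04 and 14.24 with LPS, then 12.28 and 12.53. Both read lower on the 2 LPS+zVAD arrays than on the 2 LPS arrays. The nuclear receptor Nr4a3, of the same family as Nr4a1, read 2.71 and 2.55 with LPS and 7.83 and 7.96 with LPS+zVAD. Csf2, which encodes the growth factor GM-CSF, read 8.18 and 9.13 with LPS, then 10.44 and 10.55. Tnfsf18, a ligand of the TNF family, read 2.29 and 3.50 with LPS, then 5.42 and 6.14 with LPS+zVAD.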
